A study of Mus musculus with 11 samples.

Results

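Cells make cholesterol from acetyl units through a chain of enzymes, and they hold back that chain when sterols are plentiful. The 8 genes described here are 6 enzymes of the chain (Hmgcs1, Idi1, Fdft1, Sqle, Lss and Cyp51) and 2 genes of its feedback control (Insig1 and Srebf2). They were taken by symbol from a table of 49585 gene entries, in which each symbol stood on 1 entry. All 8 passed the filter on low counts, through which 13448 genes entered the tests.

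The study compared haematopoietic stem cells, divided by surface CD41, from mice with and without depleted platelets. The cells came from the bone marrow of C57BL/6 mice and were sorted as lineage-negative, c-Kit+, Sca-1+, CD150+ cells without CD48. CD41 is the integrin alpha chain, encoded by Itga2b, that is best known from megakaryocytes and platelets. Each library was made from RNA of 1000 cells that pooled 3 mice, and the submitters described the samples as biological replicates. Platelet-depleted mice, sampled at 24 h, gave 3 libraries of CD41+ cells and 3 of CD41- cells. Control mice, given rabbit serum, gave 2 libraries of CD41+ cells and 3 of CD41- cells. The labels name neither the agent that removed the platelets nor the age or sex of the mice. All groups shared the strain and the sort gate.

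In this pathway Hmgcs1 acts early, on the way from acetyl units to mevalonate, and later enzymes build isoprenoids, squalene and the sterol rings. Srebf2 encodes SREBP-2, a membrane-bound transcription factor that is carried to the Golgi, cut there and sent to the nucleus when membrane sterols are low. Insig1 encodes the protein that holds SREBP-2 and its escort Scap in the endoplasmic reticulum when sterols are high, and Insig1, Srebf2 and the enzyme genes are themselves known targets of SREBP-2.

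The promoters of Insig1, Hmgcs1 and Srebf2 are shown because these were the 3 genes that passed the test for depletion on average over CD41+ and CD41- cells. Each is the RefSeq window from 250 bases before to 50 bases after the annotated start, 5′ to 3′, in build GRCm38.p6. The Insig1 window is chr5:28071162-28071461, the Hmgcs1 window is chr13:119690101-119690400 and the Srebf2 window is chr15:82147019-82147318, all on the plus strand. Capitals mark matches to TCACNCCA, a form of the sterol response element, and to CCAAT, the box bound by NF-Y, with either strand searched, so that a CCAAT on the other strand reads ATTGG.
Insig1: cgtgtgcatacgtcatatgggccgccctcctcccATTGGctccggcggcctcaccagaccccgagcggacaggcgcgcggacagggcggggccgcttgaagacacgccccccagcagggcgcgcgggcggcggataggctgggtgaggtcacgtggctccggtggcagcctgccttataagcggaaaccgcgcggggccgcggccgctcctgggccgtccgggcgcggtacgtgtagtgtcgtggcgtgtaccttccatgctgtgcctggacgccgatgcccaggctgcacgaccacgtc
Hmgcs1: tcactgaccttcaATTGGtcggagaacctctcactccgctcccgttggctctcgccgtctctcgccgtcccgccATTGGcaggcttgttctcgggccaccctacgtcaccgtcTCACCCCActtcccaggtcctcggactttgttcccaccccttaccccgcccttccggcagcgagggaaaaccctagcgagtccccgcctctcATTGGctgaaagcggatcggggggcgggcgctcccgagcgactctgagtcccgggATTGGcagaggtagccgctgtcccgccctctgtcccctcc
Srebf2: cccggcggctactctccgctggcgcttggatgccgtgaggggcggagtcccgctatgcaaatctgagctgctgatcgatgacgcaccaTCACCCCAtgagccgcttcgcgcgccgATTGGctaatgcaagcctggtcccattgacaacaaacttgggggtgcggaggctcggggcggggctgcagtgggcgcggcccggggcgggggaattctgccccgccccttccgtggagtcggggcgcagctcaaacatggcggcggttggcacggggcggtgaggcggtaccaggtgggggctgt

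RefSeq windows were found for 6 of the 8 genes, which leaves out Sqle and Fdft1. The form TCACNCCA stood in the windows of Hmgcs1, 137 bases before the start, and of Srebf2, 162 bases before the start, against 4.36% of 32851 promoter windows of the same length. The longer form TCACNCCAC, which contains the shorter one, stood only in the Hmgcs1 window among the 6, against 1.24% of all windows. The E-box form TCACGTGA stood in none of the 6 windows and in 0.974% of all. The box CCAAT stood in all 6 windows and in 37.4% of all windows, and the GC box GGGCGG, bound by Sp1, stood in all 6 and in 35.7% of all. Hmgcs1 had CCAAT at 4 places, Idi1 at 2 places, and Cyp51, Insig1, Lss and Srebf2 at 1 place each. These matches describe letters in the window and not binding.

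**Figure D1:**
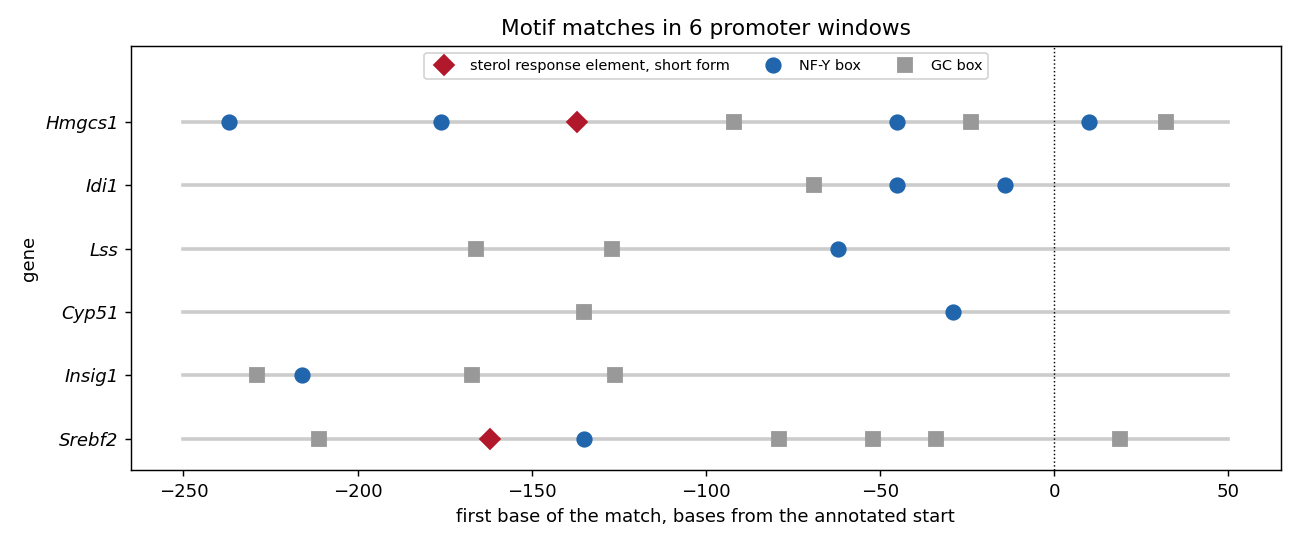
Motif matches in the promoter windows of 6 genes. The horizontal axis is the distance of the match's first base from the annotated start in bases, and each marker is 1 match on either strand (diamond, TCACNCCA; circle, CCAAT; square, GGGCGG). Only Hmgcs1, at 137 bases, and Srebf2, at 162 bases before the start, carry a diamond.

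Library totals lay between 0.974 M counts (depleted CD41+ replicate 1) and 9.95 M counts (depleted CD41- replicate 1), with a median of 3.88 M. Single-library counts of the 8 genes lay between 30 (Lss) and 959 (Sqle). The sort label held for CD41, since Itga2b was higher in CD41+ than in CD41- cells by 2.32 ± 0.25 on the log2 scale in depleted mice and by 2.50 ± 0.26 in control mice (SE). All 8 genes listed for the gate and for stem cells had counts in every group. Among them were Kit, Ly6a, Procr and Mecom, but also Cd48, whose protein the gate excludes. The presence of counts therefore does not test the gate.

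After platelet depletion, 3 of the 8 genes passed the test as lower when the change was averaged over CD41+ and CD41- cells. Insig1 fell 2.25-fold, Hmgcs1 fell 1.70-fold and Srebf2 fell 1.51-fold. The other 5 genes had negative log2 fold changes that did not pass. None of the 8 rose. With a within-pair correlation estimated for neighbouring title numbers, a pairing the labels do not state, limma voom called only Insig1 of the 8 on average, and Hmgcs1 and Srebf2 had adjusted p of 0.0546 and 0.0909. In edgeR's quasi-likelihood test with Benjamini-Hochberg adjustment over all genes, 2.73% of genes passed as lower and 6.33% passed in either direction. The median log2 fold change of the 8 genes was -0.47, and that of all 13448 genes was -0.01. Levels are given as CPM, which are counts divided by the TMM-adjusted size of their library and brought to the same total for every library. In sorted bulk cells, fewer cells of a type and less RNA per cell cannot be told apart.

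Summed over the 8 genes, depleted libraries held between 397 and 544 CPM with a median of 428 CPM, and control libraries held between 551 and 802 CPM with a median of 656 CPM. The highest depleted library, CD41+ replicate 1, was also the library with the fewest counts, and the lowest control library was CD41- replicate 3. The sums of the 6 depleted and 5 control libraries did not overlap. A sum gives more weight to the more abundant genes. With the log2 CPM of each gene standardised, the means of the 8 did overlap. They were 0.25 in depleted CD41+ replicate 1 and 0.01 in control CD41- replicate 3.

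**Figure D2:**
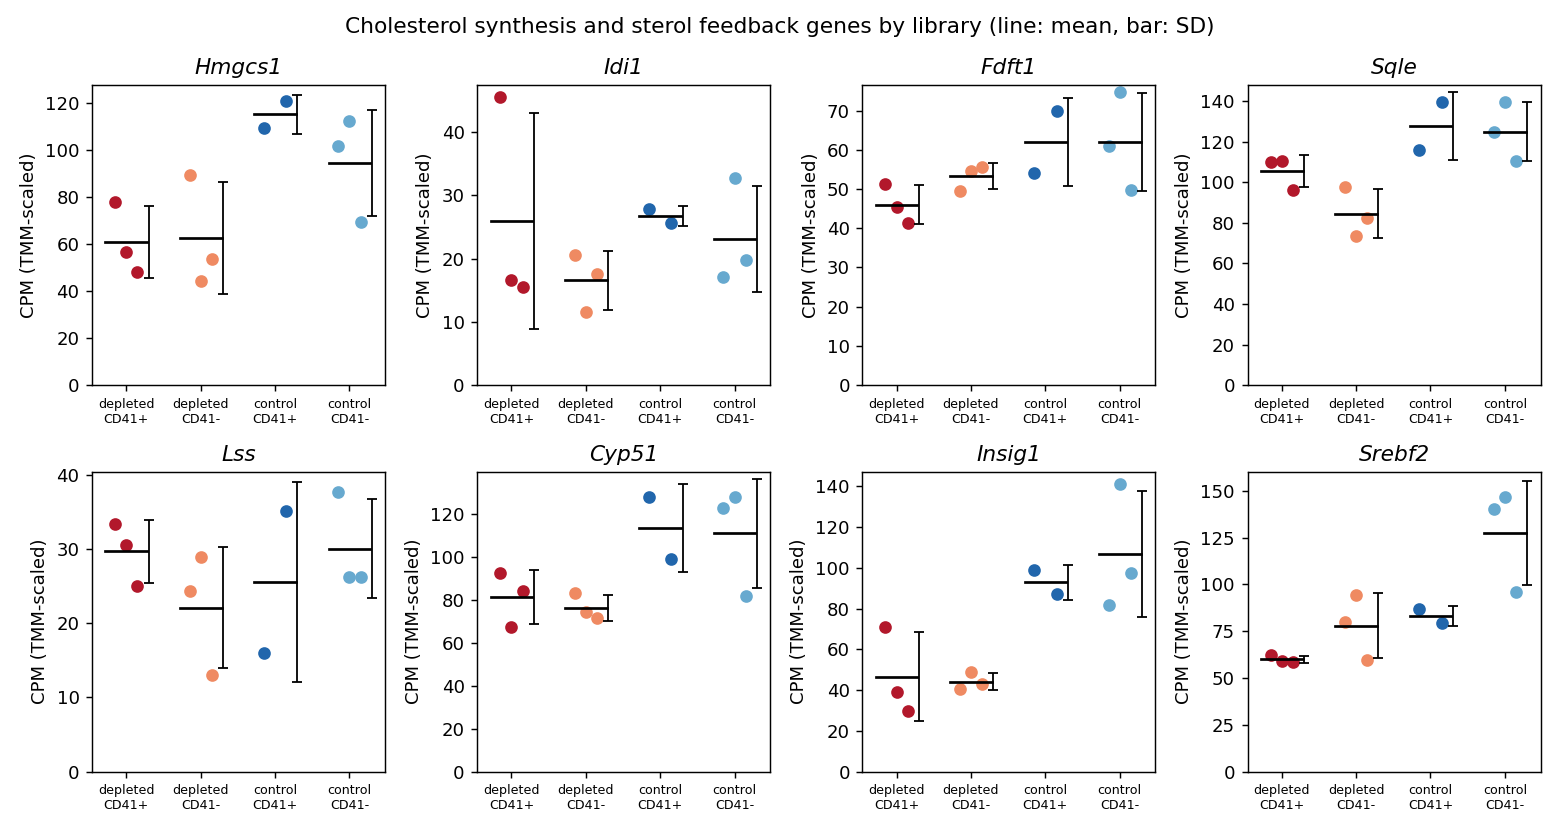
Levels of the 8 genes in each library. Each point is 1 library in TMM-scaled CPM on a linear axis from 0, with the group mean as a line and the SD as a bar, for depleted CD41+ (n = 3), depleted CD41- (n = 3), control CD41+ (n = 2) and control CD41- cells (n = 3). Every depleted library lies below every control library for Insig1 and Sqle, whereas the libraries of Idi1 and Lss are interspersed.

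Insig1, the feedback brake, showed the largest change of the 8. It stood at 71.2, 39.0 and 29.7 CPM in depleted CD41+ cells and at 40.4, 48.8 and 43.3 CPM in depleted CD41- cells. It stood at 98.9 and 87.0 CPM in control CD41+ cells and at 82.0, 141 and 97.3 CPM in control CD41- cells. Every depleted library was below every control library, and the highest depleted value came from CD41+ replicate 1. Averaged over both cell fractions, Insig1 had 45.4 ± 14.1 CPM in depleted mice (SD, n = 6) and 101 ± 23.5 CPM in control mice (SD, n = 5). Its log2 fold change was -1.17 ± 0.21 (SE), with an adjusted p of 0.0058 in edgeR's quasi-likelihood test. The call held with each of the 11 libraries left out in turn, with log2 fold changes between -1.35 and -1.04 and adjusted p between 0.00105 and 0.0349.

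Srebf2, the transcription factor that drives the pathway, fell as well. It stood at 62.3, 59.4 and 58.8 CPM in depleted CD41+ cells and at 80.1, 94.2 and 59.6 CPM in depleted CD41- cells. It stood at 87.1 and 79.2 CPM in control CD41+ cells and at 141, 147 and 95.8 CPM in control CD41- cells. Depleted libraries were below control libraries within each cell fraction, but 2 depleted CD41- libraries were above the lower control CD41+ library. Its averaged log2 fold change was -0.59 ± 0.16 (SE, adjusted p = 0.0385). The call was held only without depleted CD41+ replicate 1, depleted CD41- replicate 2 or control CD41- replicate 3, at adjusted p of 0.0439, 0.0324 and 0.0215. Without any of the other 8 libraries it was lost, at adjusted p between 0.0656 and 0.150.

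Among the enzymes, Hmgcs1, which makes HMG-CoA at the entry to the chain, fell after depletion. It stood at 77.9, 56.6 and 48.1 CPM in depleted CD41+ cells and at 89.3, 44.4 and 53.7 CPM in depleted CD41- cells. It stood at 109 and 121 CPM in control CD41+ cells and at 102, 112 and 69.3 CPM in control CD41- cells. The CD41+ libraries of the 2 treatments did not overlap, while depleted CD41- replicate 1 was above control CD41- replicate 3. Its averaged log2 fold change was -0.77 ± 0.20 (SE, adjusted p = 0.0383). The call was held only without depleted CD41+ replicate 1, depleted CD41- replicate 1 or control CD41- replicate 3, at adjusted p of 0.0244, 0.0184 and 0.0307. Without any of the other 8 libraries it was lost, at adjusted p between 0.0696 and 0.114.

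**Figure D3:**
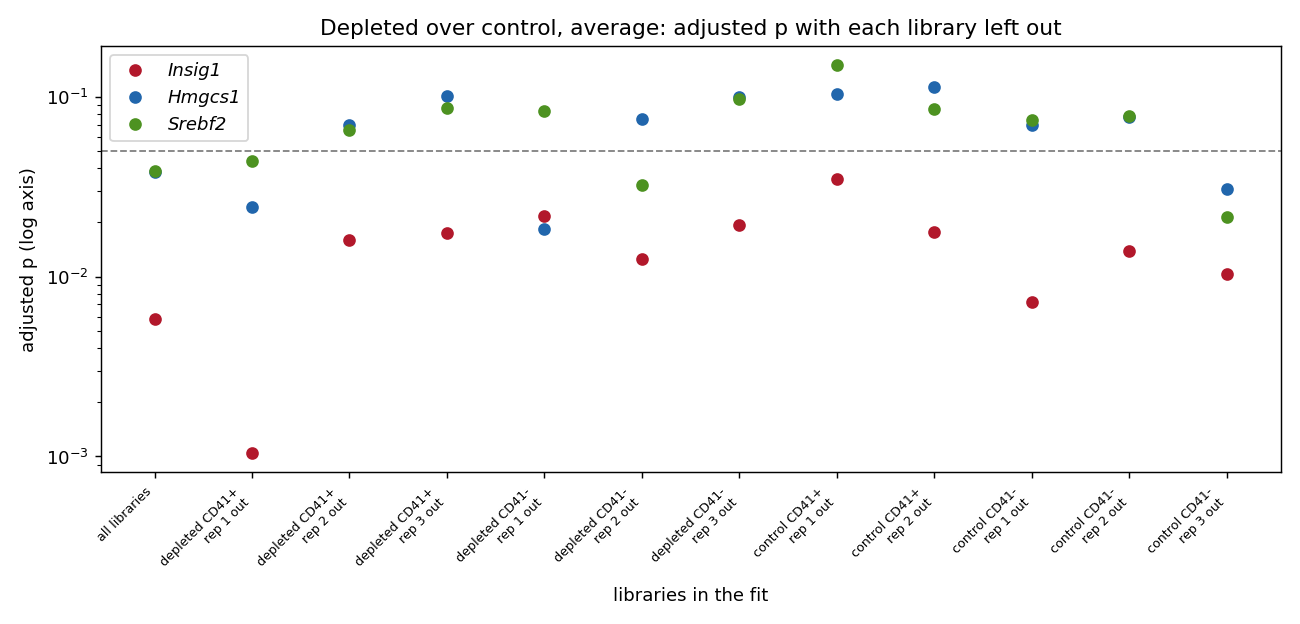
Adjusted p of Insig1, Hmgcs1 and Srebf2 for depleted over control mice, averaged over CD41+ and CD41- cells, in edgeR's quasi-likelihood test with all libraries and with each library left out. The vertical axis is logarithmic and the dashed line is the threshold of 0.05. Insig1 stays below the line in all 11 fits with a library left out, and Hmgcs1 and Srebf2 stay below it in 3 of the 11 each.

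Cyp51, the demethylase that opens the conversion of lanosterol to cholesterol, and Sqle, the epoxidase that adds oxygen to squalene, came next in size of change without passing. Cyp51 stood at 92.3, 67.4 and 84.2 CPM in depleted CD41+ cells, at 83.2, 74.1 and 71.7 CPM in depleted CD41- cells, at 128 and 98.8 CPM in control CD41+ cells, and at 123, 128 and 82.0 CPM in control CD41- cells. Its 2 treatments overlapped only through control CD41- replicate 3. Its log2 fold change was -0.52 ± 0.15 (SE, adjusted p = 0.0608), and it passed without depleted CD41+ replicate 1 (adjusted p = 0.0482) or without control CD41- replicate 3 (adjusted p = 0.0286). Sqle stood at 110.1, 110.3 and 96.4 CPM in depleted CD41+ cells, at 97.7, 73.7 and 82.3 CPM in depleted CD41- cells, at 116 and 139.6 CPM in control CD41+ cells, and at 125, 139.5 and 111 CPM in control CD41- cells. Its depleted and control libraries did not overlap, but they nearly touched, and its log2 fold change was -0.42 ± 0.13 (SE, adjusted p = 0.0656). DESeq2 called both, with adjusted p of 0.0292 for Cyp51 and 0.0303 for Sqle, beside Insig1, Hmgcs1 and Srebf2. Over all genes it called 1407 in this comparison, against 851 in edgeR. Groups without overlap in the lower direction were thus found for 2 of the 8 genes, Insig1 and Sqle, and for 1.92% of all genes tested.

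Fdft1, Idi1 and Lss gave no call. Fdft1, which joins farnesyl units to squalene, lay between 41.4 and 55.6 CPM in depleted libraries (median 50.3) and between 49.9 and 74.9 CPM in control libraries (median 61.1), with a log2 fold change of -0.33 ± 0.16 (SE, adjusted p = 0.241). Idi1, which isomerises the isoprenoid building block, lay between 11.5 and 45.6 CPM in depleted libraries (median 17.1) and between 17.1 and 32.7 CPM in control libraries (median 25.5). The highest Idi1 value of all libraries came from depleted CD41+ replicate 1, and the log2 fold change was -0.31 ± 0.31 (SE, adjusted p = 0.618). Lss, which closes the sterol rings to lanosterol, lay between 13.01 and 33.4 CPM in depleted libraries (median 27.0) and between 16.0 and 37.7 CPM in control libraries (median 26.3), with a log2 fold change of -0.12 ± 0.27 (SE, adjusted p = 0.848). The Lss and Idi1 libraries of the 2 treatments lay within each other's range over most of their span. Without control CD41+ replicate 2 the averaged Lss value was 0.22, and without depleted CD41- replicate 3 it was 0.01.

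Within CD41+ cells, which had only 2 control libraries, none of the 8 genes passed edgeR's test, in which 0.104% of all genes passed. At an unadjusted p under 0.05 there were 3 of the 8, against 12.2% of all genes, and DESeq2 called 0 of the 8. Insig1 had a log2 fold change of -1.07 ± 0.32 (SE, adjusted p = 0.200) and Hmgcs1 one of -0.95 ± 0.30 (SE, adjusted p = 0.233). Cyp51 stood at -0.49, Srebf2 at -0.47, Fdft1 at -0.44, Sqle at -0.28, Idi1 at -0.14 and Lss at 0.20, and the median of the 8 was -0.46 against -0.01 over all genes. Depleted libraries were all below control libraries for 6 of the 8 genes, all but Idi1 and Lss, and for 13.8% of all genes. Leaving out depleted CD41+ replicate 1 brought Insig1 to -1.43 with an adjusted p of 0.0477. With no filter on low counts Insig1 (adjusted p = 0.0151) and Hmgcs1 (adjusted p = 0.0296) passed, in a fit that called 317 genes against 14.

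Within CD41- cells Insig1 alone fell beyond the threshold, with 44.2 ± 4.25 CPM in depleted mice and 107 ± 30.8 CPM in control mice (SD, n = 3 each). Its log2 fold change was -1.28 ± 0.28 (SE, adjusted p = 0.0232 in edgeR's quasi-likelihood test), in a comparison where 0.892% of genes passed as lower and 3.19% in either direction. The call was lost without depleted CD41- replicate 1 (adjusted p = 0.112), 2 (0.0574) or 3 (0.101) and without control CD41- replicate 2 (0.0889) or 3 (0.0511). Srebf2 followed at -0.71 ± 0.21 (SE, adjusted p = 0.0835) and passed without control CD41- replicate 3 (adjusted p = 0.0474). Hmgcs1 stood at -0.59 ± 0.27 (SE, adjusted p = 0.288), and Sqle at -0.56 ± 0.17 (SE, adjusted p = 0.0961). Cyp51 stood at -0.54, Idi1 at -0.48, Lss at -0.44 and Fdft1 at -0.22, and the median of the 8 was -0.55 against -0.03 over all genes. Depleted libraries were all below control libraries for Insig1, Sqle and Srebf2, and for 12.1% of all genes.

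The 2 cell fractions were not shown to differ in their response. The difference of the responses, CD41+ minus CD41-, passed for 0 of the 8 genes and for 0.0% of all genes in edgeR, with 0 of the 8 and 6.13% of all genes at an unadjusted p under 0.05, and DESeq2 called 0 of the 8. It was 0.21 ± 0.42 for Insig1 (SE, normal 95% interval -0.62 to 1.04), 0.24 ± 0.31 for Srebf2 (-0.38 to 0.85) and -0.36 ± 0.41 for Hmgcs1 (-1.16 to 0.43). It was 0.64 ± 0.53 for Lss, the largest of the 8, with an interval of -0.41 to 1.68.

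**Figure D4:**
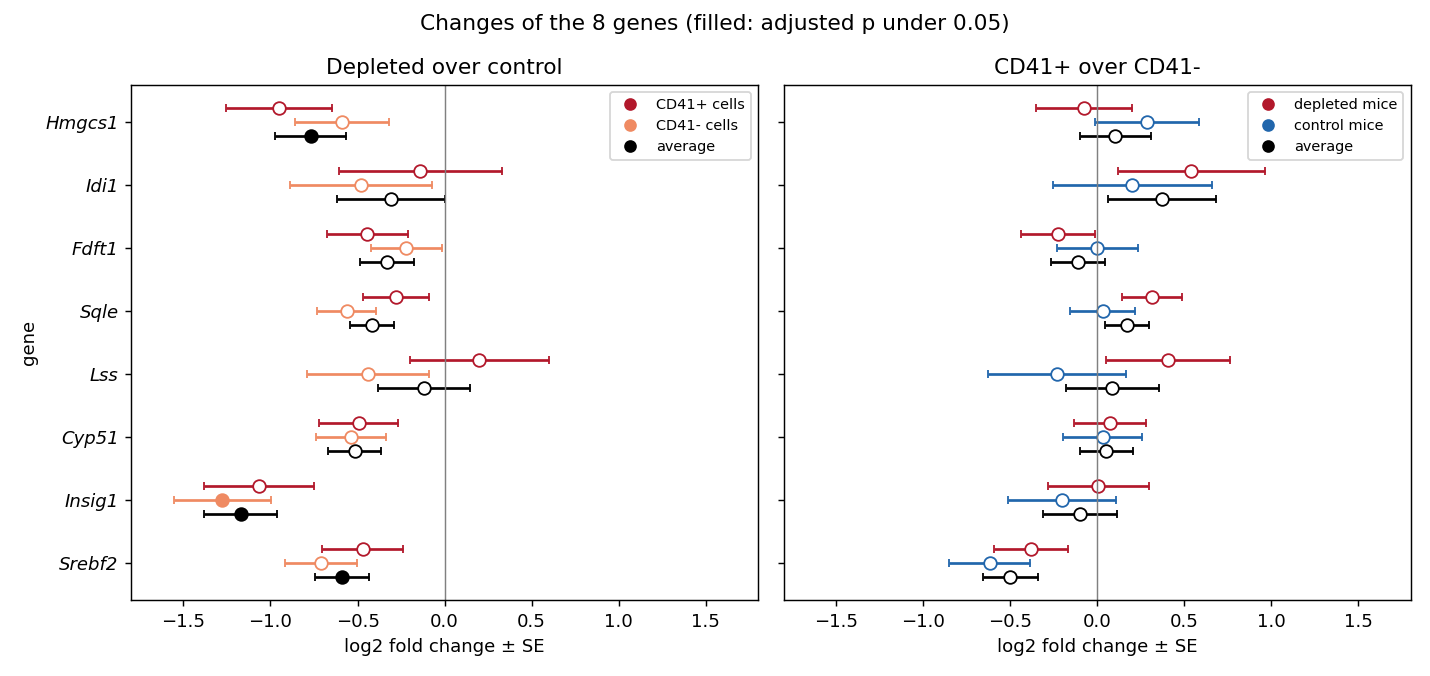
Log2 fold changes of the 8 genes with their SE, for depleted over control mice (left) and CD41+ over CD41- cells (right), from edgeR's quasi-likelihood fit to 11 libraries. Filled points passed at an adjusted p under 0.05. Points of the left panel lie below 0 except Lss in CD41+ cells at 0.20, and Insig1 (in CD41- cells and on average), Hmgcs1 and Srebf2 (on average) are filled, while no point of the right panel is.

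None of the 8 genes passed between CD41+ and CD41- cells in the fit of the 4 groups. On average over treatments, 0 of the 8 passed edgeR's test against 5.38% of all genes, 1 of the 8 had an unadjusted p under 0.05 against 23.1% of all genes, and DESeq2 called 0. In depleted mice 0 of the 8 passed against 0.193% of all genes, with 0 of the 8 and 9.18% of all genes at an unadjusted p under 0.05 and 0 by DESeq2. In control mice 0 of the 8 passed against 2.62% of all genes, with 1 of the 8 and 18.9% of all genes at an unadjusted p under 0.05 and 0 by DESeq2. The 1 gene was Srebf2. It averaged 60.2 ± 1.85 CPM in depleted CD41+ cells and 78.0 ± 17.4 CPM in depleted CD41- cells (SD, n = 3 each), and 83.2 ± 5.58 CPM in control CD41+ cells (SD, n = 2) and 128 ± 27.7 CPM in control CD41- cells (SD, n = 3). Its log2 fold change was -0.38 ± 0.21 in depleted mice (SE, adjusted p = 0.634), -0.62 ± 0.23 in control mice (SE, adjusted p = 0.168) and -0.50 ± 0.16 on average (SE, adjusted p = 0.0802). The libraries of the CD41 fractions overlapped for Srebf2 in depleted mice and did not in control mice. Without control CD41- replicate 3 its averaged value was -0.58 with an adjusted p of 0.0454, and with a replicate block of neighbouring title numbers it was -0.57 with an adjusted p of 0.0288. The averaged values of the other 7 genes lay between -0.11 (Fdft1) and 0.37 (Idi1).

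Levels between genes were compared as CPM per kilobase of the principal transcript. Sqle had the highest mean over the 11 libraries, 39.6 ± 7.62 (SD), followed by Insig1 at 26.3 ± 12.7, Cyp51 at 23.9 ± 5.76 and Hmgcs1 at 23.2 ± 8.05. Srebf2 stood at 17.3 ± 6.09, Fdft1 at 14.9 ± 2.71, Idi1 at 7.51 ± 3.21 and Lss at 5.78 ± 1.61. Insig1 was above Cyp51 in 5 of the 11 libraries, so those neighbours did not differ beyond their spread, while Sqle was above Insig1, Hmgcs1 above Srebf2 and Fdft1 above Idi1 in 10 of 11 each. Cyp51 was above Hmgcs1 in 9, Srebf2 above Fdft1 in 7 and Idi1 above Lss in 7 of the 11. With the length of all annotated exons instead, Insig1 (22.9) led before Cyp51 (21.3), Sqle (19.7) and Hmgcs1 (17.5), and Fdft1 (13.1) stood before Srebf2 (12.2), Idi1 (6.49) and Lss (2.50). The place of Sqle thus depended on the transcript length used.

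The wider pathway was read from lists of genes, averaged over CD41+ and CD41- cells. Of the other cholesterol synthesis enzymes, 16 of 17 were tested, and their median log2 fold change was -0.19. Of the 16, 2 passed as lower, against 2.73% of all genes, and none passed as higher. Msmo1, the methyl sterol oxidase that acts after Cyp51, fell to 188, 87.6 and 98.5 CPM in depleted CD41+ cells and 93.7, 48.0 and 80.9 CPM in depleted CD41- cells. It had 232 and 152 CPM in control CD41+ cells and 208, 301 and 136 CPM in control CD41- cells. Its averaged log2 fold change was -1.09 ± 0.26 (SE, adjusted p = 0.0301), and in CD41- cells it was -1.53 ± 0.36 (SE, adjusted p = 0.0378). Hsd17b7, a sterol ketone reductase of the same stretch, had 4.08 to 9.68 CPM in depleted libraries and 12.9 to 31.1 CPM in control libraries, without overlap, and a log2 fold change of -1.30 ± 0.32 (SE, adjusted p = 0.0293). Its levels in depleted CD41+ cells rested on only 8, 25 and 14 counts. Leaving out single libraries ended the call of Msmo1 in CD41- cells in 6 of 11 fits (adjusted p up to 0.131, without depleted CD41- replicate 3), its averaged call in 6 of 11 fits (adjusted p up to 0.143, without control CD41+ replicate 1) and that of Hsd17b7 in 8 of 11 (up to 0.0866, without the same library).

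Of 12 genes for SREBP processing and sterol sensing, the median was -0.10, none passed as higher and 1 passed as lower, against 2.73% of all genes. It was Rnf139, which encodes an endoplasmic reticulum ubiquitin ligase with a sterol-sensing domain, with 40.2 to 60.1 CPM in depleted libraries and 63.3 to 98.9 CPM in control libraries, without overlap. Its log2 fold change was -0.67 ± 0.14 (SE, adjusted p = 0.0161), and the call was lost only without control CD41+ replicate 1 (adjusted p = 0.0926).

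Of 10 tested genes for sterol export and esterification, the median was 0.08, none passed as higher and 2 passed as lower, against 2.73% of all genes. Apoe, a lipid-carrying apolipoprotein, had a log2 fold change of -0.94 ± 0.24 (SE, adjusted p = 0.0345), which was lost in 9 of the 11 fits with a library left out (adjusted p up to 0.153, without control CD41+ replicate 1). Nceh1, a cholesteryl ester hydrolase, had one of -0.69 ± 0.14 (SE, adjusted p = 0.0113), which was lost only without control CD41+ replicate 2 (adjusted p = 0.0595). The 13 genes of the isoprenoid branch and the 11 tested fatty acid synthesis genes gave 0 calls in edgeR, 0 at an unadjusted p under 0.05 and 0 by DESeq2, with medians of 0.08 and 0.06. The fatty acid genes with the smallest p in any comparison, the desaturase genes Scd2 (-0.25 ± 0.19 SE) and Scd1 (2.65 ± 1.29 SE), did not pass. Scd1 ranged from 0.243 to 247 CPM over single libraries, and its highest value came from depleted CD41- replicate 3.

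**Figure D5:**
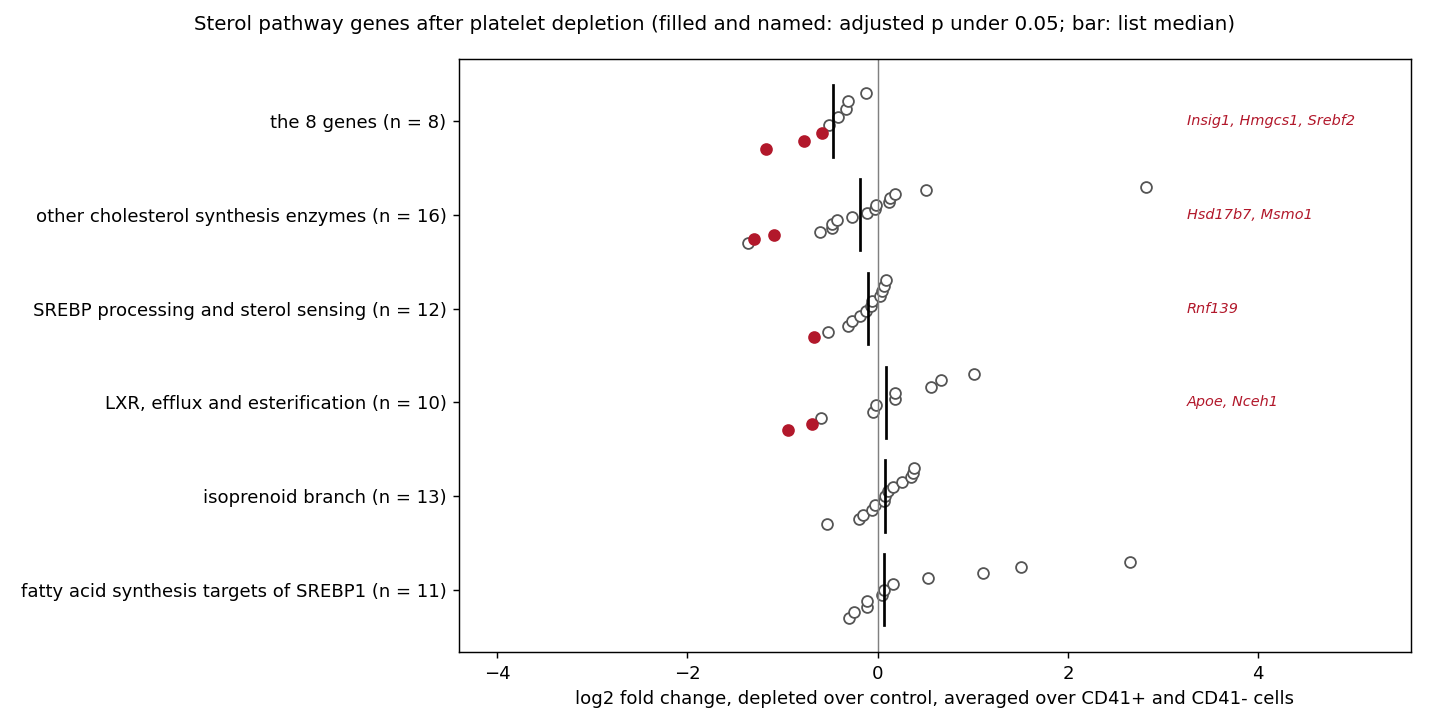
Log2 fold changes for depleted over control mice, averaged over CD41+ and CD41- cells, for the 8 genes and 5 lists of the wider pathway. Each circle is 1 gene, filled and named where the adjusted p was under 0.05, and the bar is the list's median. The median of the 8 genes lies at -0.47, and the medians of the other lists lie between -0.19 and 0.08.

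Between CD41 fractions, the lists gave 3 calls on average over treatments, in a comparison where 5.38% of all genes passed. They were 2 of 10 tested genes for sterol export and esterification and 1 of 13 genes of the isoprenoid branch. The other synthesis enzymes (16 tested), the SREBP processing genes (12 tested) and the fatty acid synthesis genes (11 tested) gave 0. Nceh1 fell in CD41+ cells by 0.86 ± 0.14 on the log2 scale (SE, adjusted p = 0.0050), in each of the 11 fits with a library left out. Abca1, the pump that passes cholesterol to apolipoproteins, stood at 10.0, 7.06 and 10.8 CPM in depleted CD41+ cells and 10.2, 11.5 and 11.1 CPM in depleted CD41- cells, and at 3.47 and 2.58 CPM in control CD41+ cells and 14.0, 12.3 and 19.2 CPM in control CD41- cells. Its level was thus lowest in the 2 control CD41+ libraries, on only 13 and 10 counts, and the CD41 fractions overlapped in depleted mice. The log2 fold change of CD41+ over CD41- cells was -2.32 ± 0.45 in control mice (SE, adjusted p = 0.0157) and -1.29 ± 0.28 on average (SE, adjusted p = 0.0194). The control value lost its call without control CD41+ replicate 1 (adjusted p = 0.0699) or 2 (0.157) or control CD41- replicate 3 (0.0504), and the averaged one without control CD41+ replicate 1 (0.0541) or 2 (0.0919). Pdss1, which makes the side chain of ubiquinone, was higher in CD41+ cells by 0.68 ± 0.18 on the log2 scale (SE, adjusted p = 0.0406), a call that held in 1 of the 11 fits with a library left out, the one without depleted CD41+ replicate 3 (adjusted p = 0.0365), and otherwise had an adjusted p up to 0.148.

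Genes outside the 8 were also ranked by how closely their log2 CPM followed the mean of the standardised log2 CPM of the 8 across the 11 libraries. Of the 6 most alike, 5 were Rnf114 (Pearson r = 0.947), Clcn4 (0.941), Mcfd2 (0.937), Rnf2 (0.919) and Tifa (0.902). Of the pathway lists, Msmo1 (r = 0.873, rank 28 of 13440), Stard4, a sterol carrier (r = 0.865, rank 34), and Rnf139 (r = 0.754, rank 245) followed. Of the 8 listed cell division markers, Mki67 (r = -0.913, rank 13436) and Top2a (r = -0.827, rank 13373) stood at the other end of the ranking. The rest of these markers lay between Ccnb1 (r = -0.496, rank 11903) and Rrm2 (r = -0.323, rank 10311). Points share library, depth and treatment, and the r values describe these 11 libraries only. Within the 8, the mean standardised level was lowest in depleted CD41- replicate 3 (-0.95) and highest in control CD41- replicate 2 (1.27), while depleted CD41+ replicate 1 (0.25) stood above control CD41- replicate 3 (0.01).

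Some markers of cell division and of other cells, but not all, differed between the groups beside these results. The summed level of the 8 proliferation genes was 2501 to 2840 CPM in depleted CD41+ cells, 2350 to 2424 CPM in depleted CD41- cells, 2100 to 2233 CPM in control CD41+ cells and 770.3 to 1100 CPM in control CD41- cells. After depletion on average 7 of 8 were higher, where 6.33% of all genes passed in either direction. Within CD41- cells 6 of 8 were called higher, against 3.19% of all genes in either direction. Within CD41+ cells 0 of 8 were called, against 0.104% of all genes. The 6 megakaryocyte genes summed to 176 to 249 and 63.6 to 89.4 CPM in depleted CD41+ and CD41- cells, and to 283 to 618 and 102 to 156 CPM in control CD41+ and CD41- cells. After depletion on average 4 of 6 were lower, against 2.73% of all genes. The 10 neutrophil genes, 0.457% to 7.997% of counts, summed to 4339 to 53462 CPM in depleted and 8707 to 88041 CPM in control libraries. After depletion on average, 0 of 10 were called by edgeR or DESeq2 and 0 had an unadjusted p under 0.05. In CD41+ over CD41- cells on average, all 10 had positive log2 fold changes with a median of 1.40. There edgeR called 0 and DESeq2 called 3, and 4 had an unadjusted p under 0.05, against 23.1% of all genes. The 8 endothelial and stromal genes summed to 69.7 to 495 CPM in depleted and 77.3 to 315 CPM in control libraries, with Ibsp at 0 in control CD41- cells. Of these, 0 of 7 tested passed edgeR's test after depletion on average, 3 had an unadjusted p under 0.05, DESeq2 called 2, and the median log2 fold change was 1.70. The 6 lymphoid genes summed to 74.1 to 228 CPM in depleted and 118 to 429 CPM in control libraries, with Cd3e at 0 in depleted CD41- and control CD41+ cells. Of 5 tested, 1, Nkg7, was lower after depletion on average, against 2.73% of all genes. The 6 erythroid genes summed to 147 to 1216 CPM in depleted and 209 to 1538 CPM in control libraries, and the 6 macrophage genes to 66.0 to 460 CPM in depleted and 42.6 to 308 CPM in control libraries. In both of these lists 0 of 6 genes passed in edgeR or DESeq2 after depletion on average, and 0 had an unadjusted p under 0.05. In CD41+ over CD41- cells on average, 5.38% of all genes passed edgeR's test. There it called 1 of 6 erythroid genes higher and 0 of 6 macrophage genes, with 2 of each at an unadjusted p under 0.05. DESeq2 called 2 and 0. As higher in CD41+ cells edgeR also called 3 of 7 endothelial and stromal, 1 of 5 lymphoid, 5 of 6 megakaryocyte and 5 of 8 proliferation genes. The 8 gate and stem cell genes, Cd48 among them, summed to 604 to 1186 CPM in depleted and 1076 to 1736 CPM in control libraries. After depletion on average 2 of 8 were lower, against 2.73% of all genes. The part of these levels in the sterol gene results was not tested.

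By GENCODE M21 on GRCm38 all 8 are protein-coding genes. Insig1 (ENSMUSG00000045294) lies at chr5:28071363-28078662 on the plus strand, Hmgcs1 (ENSMUSG00000093930) at chr13:119690379-119708260 on the plus strand and Srebf2 (ENSMUSG00000022463) at chr15:82147181-82205379 on the plus strand. Sqle (ENSMUSG00000022351) lies at chr15:59315077-59331192 on the plus strand, Idi1 (ENSMUSG00000058258) at chr13:8885501-8892451 on the plus strand and Lss (ENSMUSG00000033105) at chr10:76531588-76557138 on the plus strand. Fdft1 (ENSMUSG00000021273) lies at chr14:63145150-63179578 and Cyp51 (ENSMUSG00000001467) at chr5:4081145-4104746, both on the minus strand. Fdft1 shares 774 bases with Ctsb, Cyp51 shares 166 bases with Akap9 and Lss shares 11268 bases with the antisense gene 4930483K19Rik, each on the opposite strand, and Mir33 lies inside Srebf2 on the same strand with 0 counts in all libraries. No source used here gives the strand setting of the counting, so reads in the shared stretches of Fdft1, Cyp51 and Lss may belong to either partner. The antisense gene inside Lss had 1 to 20 counts in a library, against at least 30 for Lss. Ctsb had 478 to 5026 counts, above the 46 to 486 of Fdft1, and Akap9 had 5 to 250, against 83 to 817 for Cyp51.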

How the data were processed

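Oligo-dT primed, template-switched cDNA was amplified over 17 and indexed over 12 PCR cycles, per the labels' protocols. The deposited values were counts per gene made by the authors with cutadapt, STAR and HTSeq 0.6.1p1, per the submitters' processing notes, which name the builds GRCm38 and mm10. No source used here gives the strand setting or the annotation release. Of 49585 entries, 49326 had a symbol in GENCODE M21 and 24487 were 0 in all libraries.

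The function filterByExpr of edgeR, at a minimum count of 10 and a minimum total of 15, retained 13448 genes that held 99.7% of the counts. Counts were scaled by TMM and fitted with the robust quasi-likelihood model of edgeR 4.0.16 (limma 3.58.1, R 4.3.3), with 1 coefficient for each of 4 groups over all 11 libraries. Replicates were numbered in order of deposit. P-values were adjusted by Benjamini-Hochberg over all genes at 0.05, and each SE was obtained by dividing the size of a log2 fold change by the root of its F statistic. Alternatives were RLE size factors, library size alone, no filter, the compared groups only, a block, DESeq2 1.42.0 and leaving out each library, and limma voom with and without an estimated within-pair correlation, added after the data were seen. Single libraries left out of the 2 control CD41+ libraries leave 1, which is then assumed to vary like the other groups. The procedure was tested on simulated data. Motifs were searched in RefSeq windows in Python 3.11.15, and figures were drawn with matplotlib 3.10.9.

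The 8 genes and all lists were chosen with earlier results of these data known. Named from the 6 pathway lists were genes called in any comparison (up to 6 a list), or the 2 of smallest p where a list had none, and the 6 genes most alike in pattern. Stard4 and the example markers were named outside this rule, after their values were seen, and some genes that the rule names are not reported here. Depth was 0.974 M to 9.95 M counts. P-values measure the spread between libraries, each from a pool of 3 mice. The labels do not state whether CD41+ and CD41- libraries share pools, and the main fit treats all 11 libraries as independent. Without molecular identifiers PCR copies cannot be told from separate molecules.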

Additional observations from a re-analysis of the deposited data

How the results depend on the processing

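RLE size factors and library size alone called the same sterol genes in the depletion comparisons as TMM did, with the same signs. Without a filter 2 of the 8 genes, Hmgcs1 and Insig1, were called in CD41+ cells, against 0, while calls over all genes went from 14 to 317. DESeq2 called 3 of the 8 in CD41- cells against 1 (Insig1, with Sqle and Srebf2 added), and 5 on average against 3. Over all genes DESeq2 called 851 against 429 in CD41- cells and 1407 against 851 on average. The added calls of the 8 thus came with more calls in general. The labels share no replicate number between groups. A replicate block that joins neighbouring title numbers, a pairing the labels do not state, called 1 of the 8 (Srebf2, adjusted p = 0.0288) in CD41+ over CD41- cells on average. Deviations of the paired libraries from their group means correlated at 0.228, 0.343 and 0.207 in depleted mice and at 0.080 and 0.098 in control mice. The 2 control CD41+ libraries deviate from their mean by equal and opposite amounts, so the 2 control values are not independent. Libraries outside these pairs were not correlated, so the values cannot decide whether the pairing is real. For depleted over control mice each pair lies within 1 treatment, so limma voom with a replicate block as a random effect was added after seeing the data, at an estimated correlation of 0.236. It called 1 of the 8 on average, Insig1, against 3, while voom without the block called the same 3 as edgeR. In CD41- and CD41+ cells both voom fits called 1 and 0 of the 8.

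Counts of called genes moved more. In depleted over control CD41- cells the count was 429, with 862 without a filter, 851 in DESeq2, 688 in voom, 682 in voom with the block and 169 to 560 with libraries left out. In CD41+ cells it was 14, with 317 without a filter, 0 on the compared groups only, 266 in DESeq2 and 0 to 57 with libraries left out. On average it was 851, with 1336 without a filter, 1407 in DESeq2 and 291 to 1060 with libraries left out. For CD41+ over CD41- cells in depleted mice it was 26, with 387 without a filter, 158 with the block, 204 in DESeq2 and 5 to 32 with libraries left out. In control mice it was 352, with 1142 without a filter, 143 on the compared groups only, 994 in DESeq2 and 48 to 545 with libraries left out. On average it was 724, with 1674 without a filter, 1441 in DESeq2 and 300 to 788 with libraries left out. For the difference of responses it was 0, with 178 without a filter, 2 with the block, 35 in DESeq2 and 0 with libraries left out. With library size alone the CD41 comparisons gave 129 higher and 157 lower genes in control mice, against 212 and 140, and 250 higher and 445 lower on average, against 367 and 357. The median of all genes moved to -0.15 and -0.12. The cause of these differences was not tested.

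With single libraries left out, between 0 and 1 of the 8 genes were called in CD41- cells, 0 and 1 in CD41+ cells, 1 and 4 on average, and 0 and 1 in CD41+ over CD41- cells on average. Among the values for depleted over control mice the sign turned in 5, all of Lss or Idi1. For depleted over control CD41+ cells, Lss ranged from -0.25 to 0.87 and Idi1 from -0.73 to 0.14, with Idi1 at 0.11 and 0.14 in the 2 fits where it turned. On average Lss ranged from -0.33 to 0.22. Pdss1 lost its call with library size alone (adjusted p = 0.0710) and without a filter (0.0571). Abca1 in control mice lost its call on the compared groups only (adjusted p = 0.0737). Scd1, which did not pass with the filter, passed without it for depleted over control mice on average (adjusted p = 2.6e-19, edgeR's quasi-likelihood test). It stood at 247 CPM in depleted CD41- replicate 3 and at 61.2 CPM or less in every other library, so that call leans on 1 library.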
